A study of Mus musculus with 6 samples.

Results

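The immediate early transcription factors examined here are 10 genes: *Fos*, *Fosb*, *Jun* and *Junb*, which encode subunits of the AP-1 complex, *Egr1* and *Egr3*, which encode zinc finger factors, *Ier2*, which encodes a nuclear protein of the immediate early response, and *Nr4a1*, *Nr4a2* and *Nr4a3*, which encode orphan nuclear receptors. They were fixed as a named list, with earlier results of these data known. All 10 were represented on the array, by 11 probes, and 8 of them were among the 20900 genes with enough signal to be tested. Of these 20900, 13844 had a gene symbol, and the rest were counted by the identifier given for their probe. RNA came from the gastrocnemius, a calf muscle of mostly fast fibers, of male C57BL/6J mice. Young mice were 13 weeks of age (N = 3) and aged mice were 26 months of age (N = 3), with no treatment or genetic change named for either group, and 1 single-color array was run per mouse. Whole muscle was used, so fewer cells of a type and less RNA per cell cannot be told apart in these values. Of the 11 skeletal muscle fiber markers listed, 10 were tested and none passed the threshold. All 10 had a lower mean in aged mice (median log2 difference -0.18), as did 11882 of all 20900 genes tested. The lowest value of *Acta1*, *Ckm* and *Pvalb* on any array was 9.14.

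Immediate early genes are transcribed within minutes of a stimulus, without need of new protein, because the factors that switch them on (SRF with its ternary complex partners, and CREB) are already present and are activated by phosphorylation. Their products then bind the promoters of later genes. FOS proteins pair with JUN proteins to form AP-1, EGR proteins bind GC-rich sites, and NR4A receptors act without a known hormone ligand. In skeletal muscle these genes are known to respond to contraction, adrenergic signals, injury and denervation, and their mRNAs are short-lived, so that a level measured at one time depends on what the muscle did shortly before sampling. The methods state that surgery was done under pentobarbital anesthesia. The hour of sampling and the activity of the mice before it were not given in the sources used here.

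Values are log2 signals relative to the array's own 75th percentile, so that 0 is the signal below which 75 percent of probes lay. They compare mice for one probe, and not one gene with another, because probes differ in brightness for the same amount of RNA. A difference is given as aged minus young on this log2 scale with its SE, and the adjusted p is from limma with the Benjamini-Hochberg method over all 20900 genes, called at 0.05. With 3 mice in each group, the smallest two-sided p of an exact permutation test is 0.1. The limma p-values set the difference between the groups against the spread between these mice, which limma adjusts with the spread of all genes tested.

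None of the 8 genes tested passed the threshold, while 53 of all genes did (0.254%). That count was unstable: leaving out young mouse 1, 2 or 3 gave 9, 8 or 8 genes, and leaving out aged mouse 1, 2 or 3 gave 199, 9 or 1, with none of the 8 genes among them in any of these fits. Without adjustment, limma gave p under 0.05 for *Fos* and *Junb*, which had higher means in aged mice, and for *Nr4a1*, which had a lower mean. Among all genes tested, 6.07% were higher and 8.36% were lower by that criterion. *Junb* was also the only gene of the 8 with every aged mouse above every young mouse, a pattern held by 7.92% of all genes, and *Nr4a1* the only one with every aged mouse below every young mouse, a pattern held by 13.9%. These counts of 1 among 8 genes are close to the shares of all genes. The median difference of the 8 genes was 0.07, against -0.06 for all genes tested.

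**Figure D1:**
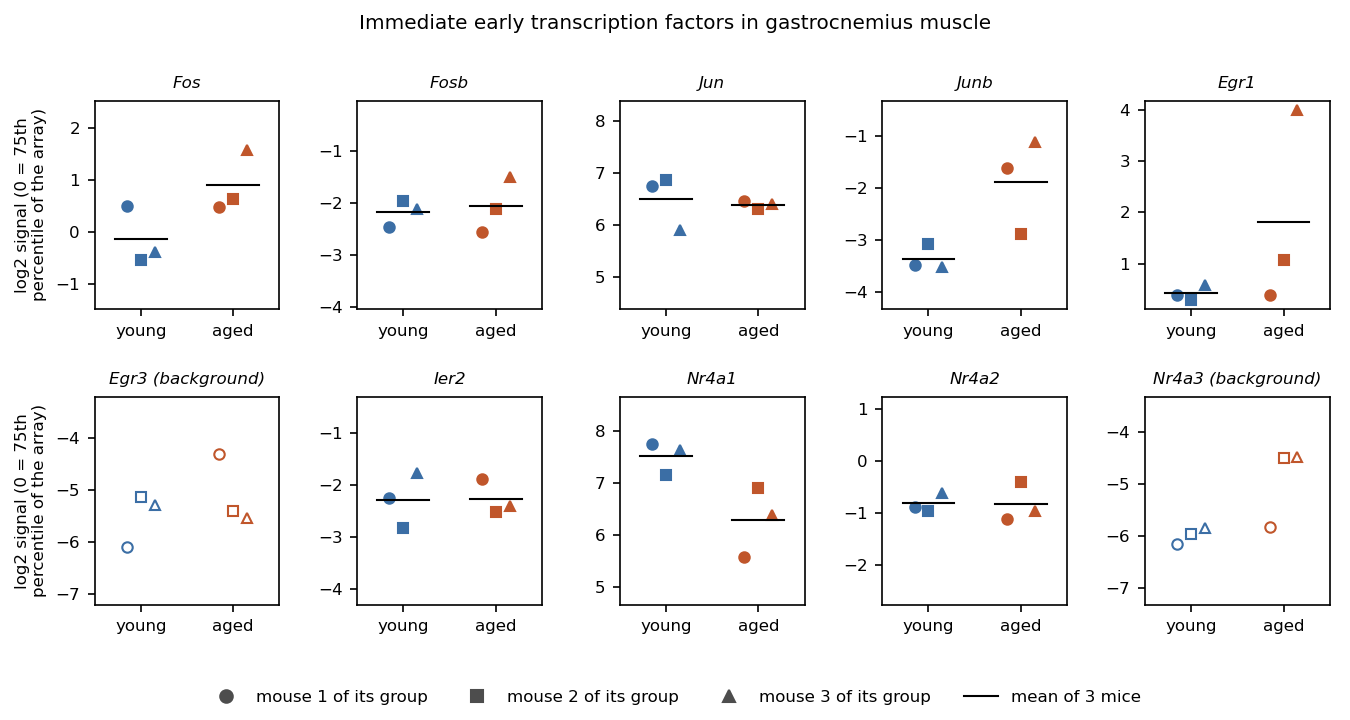
Log2 signal (0 = 75th percentile of the array) of the 10 immediate early transcription factors in young (blue) and aged (red) gastrocnemius, 1 panel per gene with its own axis range. Points are mice, shaped by their number within the group, lines are means of 3 mice, and open points without a line mark *Egr3* and *Nr4a3*, which were not well above background on any array. Aged mouse 3 lies apart from the other mice for *Egr1*, at 4.0.

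The start regions of *Fos*, *Junb* and *Nr4a1* are shown because these are the genes with an unadjusted p under 0.05. The windows lie upstream of the annotated transcription start, outside the transcribed gene, and were taken from RefSeq promoters on the mouse build GRCm38.p6, each written 5′ to 3′ on the strand of its gene. Capitals mark TGACG, or CGTCA where TGACG lies on the opposite strand. TGACG is the core of the cAMP response element, the site of CREB.

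Fos, chr12:85473802-85473850, plus strand: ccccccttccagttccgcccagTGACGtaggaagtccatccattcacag

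Junb, chr8:84978828-84978876, minus strand: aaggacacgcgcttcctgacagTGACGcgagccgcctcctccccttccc

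Nr4a1 distal, chr15:101266596-101266659, plus strand: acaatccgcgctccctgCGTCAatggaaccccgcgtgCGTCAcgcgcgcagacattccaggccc

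Nr4a1 proximal, chr15:101266755-101266832, plus strand: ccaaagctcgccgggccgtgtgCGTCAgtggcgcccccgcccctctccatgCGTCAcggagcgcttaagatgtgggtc

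The RefSeq table held promoters, from 250 bases before the start to 50 after it, for 7 of the 10 genes. *Egr1*, *Egr3* and *Ier2* have no entry. The core was found on either strand in 6 of the 7, all but *Jun*, and in 20.8% of all 32851 promoters. It was searched after the full motifs had given few matches. In *Fos* it lay at positions -129 to -125 and -66 to -62 from the start, in *Junb* at -106 to -102, and in *Nr4a1* at 4 places between -233 and -36. *Nr4a2* and *Nr4a3* also held 4 each, and *Fosb* held 1.

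The full cAMP response element, TGACGTCA, which contains the core, was in 0 of the 7 promoters and in 1.79% of all. The AP-1 site (TGACTCA or TGAGTCA) was in 0 of 7 and in 5.2% of all, and the CArG box, the site of SRF, in 0 of 7 and in 1.63% of all. The EGR site (GCGGGGGCG or GCGTGGGCG) was in 2 of 7, *Fosb* and *Nr4a1*, and in 3.47% of all. Both strands were searched. In *Nr4a1* the EGR site lay at positions -60 to -52, between the pair of cores of the proximal window, and in *Fosb* at -50 to -42. No match says only that these letters are not in this window.

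*Fos* encodes the AP-1 subunit that is usually scarce in resting cells. Its log2 signal in the order of mouse number was 0.51, -0.52 and -0.37 among the young and 0.49, 0.64 and 1.58 among the aged, an order kept for every gene below. Young mouse 1 lay level with aged mice 1 and 2, so the groups overlapped, and aged mouse 3 was the highest. The means were -0.13 ± 0.56 (SD, n = 3) and 0.90 ± 0.59 (SD, n = 3), a difference of 1.03 (SE 0.39, 2.04-fold). The limma p was 0.0325 before and 0.304 after adjustment, and the unadjusted 95% interval ran from 0.11 to 1.95.

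*Fosb* encodes another FOS protein. Its log2 signal was -2.47, -1.96 and -2.11 in young mice and -2.56, -2.11 and -1.51 in aged mice. The lowest and the highest value were both from aged mice. The difference was 0.12 (SE 0.30, limma adjusted p = 0.871), and its direction turned under scaling to the array median (-0.03) and with slide row as a block (-0.38).

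*Jun*, the dimer partner of FOS proteins, had log2 signals of 6.76, 6.87 and 5.92 in young mice and 6.47, 6.31 and 6.41 in aged mice. All 3 aged mice lay within the range of the young mice. The difference of -0.12 (SE 0.27, limma adjusted p = 0.864) had an interval of -0.76 to 0.53.

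*Junb* encodes a JUN protein that is needed to keep adult muscle mass and that often opposes JUN. Its log2 signal was -3.48, -3.08 and -3.53 in young mice and -1.62, -2.88 and -1.13 in aged mice. Every aged mouse was above every young mouse, but aged mouse 2 exceeded young mouse 2 by little, and aged mice 1 and 3 carried most of the difference. The means were -3.36 ± 0.25 (SD, n = 3) and -1.88 ± 0.90 (SD, n = 3). The difference of 1.48 (SE 0.44, 2.80-fold) was the largest of the 8 genes, with an unadjusted limma p of 0.0119, an adjusted p of 0.227 and an interval of 0.45 to 2.52. The probe was dim, and under normexp background correction the difference was 0.63.

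Other AP-1 relatives were read from a list of 11 genes, of which 10 were tested and *Fosl1* was not. None passed the threshold, 8 had a higher and 2 a lower mean in aged mice, and the median difference was 0.19. Without adjustment, limma gave p under 0.05 for 2 higher genes and 1 lower gene (6.07% and 8.36% of all genes). *Atf3*, which encodes a stress-induced factor that pairs with JUN proteins, had log2 signals of 0.38, -0.71 and -1.16 in young mice and 1.56, 1.57 and 4.27 in aged mice, a difference of 2.96 (SE 0.79, limma adjusted p = 0.195). As for *Egr1* below, aged mouse 3 stood above the other aged mice. *Batf*, which encodes an AP-1 factor of immune cells, was well above background on 5 arrays and differed by 1.29 (limma adjusted p = 0.139); it was singled out after its values were seen. *Jdp2*, which encodes a repressor at AP-1 sites, differed by -0.72 (SE 0.23, limma adjusted p = 0.254), or by -0.37 with slide row as a block, and *Jund*, the JUN family member present in most resting cells, by 0.02.

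*Egr1* encodes a factor induced by serum, stretch and contraction. Its log2 signal was 0.38, 0.30 and 0.59 in young mice and 0.38, 1.07 and 4.0 in aged mice. Aged mouse 1 lay within the range of the young mice, aged mouse 2 was slightly above it, and aged mouse 3 was far above all others. The means were 0.42 ± 0.15 (SD, n = 3) and 1.82 ± 1.92 (SD, n = 3). The difference of 1.39 (SE 0.86, limma adjusted p = 0.495) fell to 0.30 without aged mouse 3, so 1 animal decided its size.

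*Egr3*, known for its part in the development of muscle spindles, was not well above background on any of the 6 arrays. Its signal was -6.11, -5.14 and -5.29 in young mice and -4.31, -5.41 and -5.53 in aged mice. Values at background give no fold. The related genes *Egr4* and *Wt1* were not tested either. Of the other 3 on that list, none passed the threshold and the median difference was -0.24. *Nab2*, which encodes a corepressor that EGR proteins both bind and induce, had log2 signals of 0.88, 0.67 and 1.37 in young mice and 1.77, 2.04 and 3.29 in aged mice. Aged mouse 3 was again the highest (difference 1.40, SE 0.42, limma adjusted p = 0.230), and with slide row as a block the difference was 0.80. *Egr2*, by contrast, had a lower mean in aged mice (difference -0.50, limma adjusted p = 0.561), with overlap.

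*Ier2* was spread alike in the 2 groups, with log2 signals of -2.25, -2.82 and -1.77 in young mice and -1.87, -2.51 and -2.39 in aged mice. All aged mice lay within the range of the young mice. The difference was 0.02 (SE 0.31, limma adjusted p = 0.976), with an interval of -0.71 to 0.76, and it turned negative under quantile normalization (-0.01) and under median scaling (-0.12).

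*Nr4a1*, also called Nur77, encodes a receptor that responds to adrenergic signals in muscle and regulates genes of glucose use. Its log2 signal was 7.75, 7.16 and 7.63 in young mice and 5.57, 6.90 and 6.38 in aged mice. The groups did not overlap, with the aged mice lower. Aged mouse 1 was the lowest, and aged mouse 2 came within the smallest distance of young mouse 2. The means were 7.51 ± 0.31 (SD, n = 3) and 6.28 ± 0.67 (SD, n = 3), a difference of -1.23 (SE 0.35, 0.426-fold). Before adjustment the limma p was 0.0108 and after it 0.222, with an unadjusted interval of -2.07 to -0.39.

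*Nr4a2* had 2 probes. On the brighter one, its log2 signal was -0.88, -0.95 and -0.60 in young mice and -1.11, -0.41 and -0.96 in aged mice, with aged mice at both ends of the range. The difference was -0.01 (SE 0.23, limma adjusted p = 0.984, interval -0.56 to 0.53), and its sign turned (0.02) where arrays were scaled on detected probes alone. The dimmer probe gave -2.98, -3.10 and -2.74 in young mice and -3.52, -2.55 and -2.86 in aged mice, a difference of -0.04. On both probes aged mouse 1 was the lowest and aged mouse 2 the highest.

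*Nr4a3* was not well above background on any array. Its signal was -6.16, -5.97 and -5.84 in young mice and -5.84, -4.51 and -4.48 in aged mice, so that it has no fold either. The RXR receptors, of which RXRα and RXRγ pair with NR4A1 and NR4A2, were all tested and none passed the threshold. All 3 had a lower mean in aged mice, with *Rxra* at -0.58 (SE 0.17, limma adjusted p = 0.232), *Rxrb* at -0.42 (SE 0.17, limma adjusted p = 0.332) and *Rxrg* at -0.17. *Rxra* and *Rxrb* were 2 of 3 with every aged mouse below the young mice, against 13.9% of all genes.

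**Figure D2:**
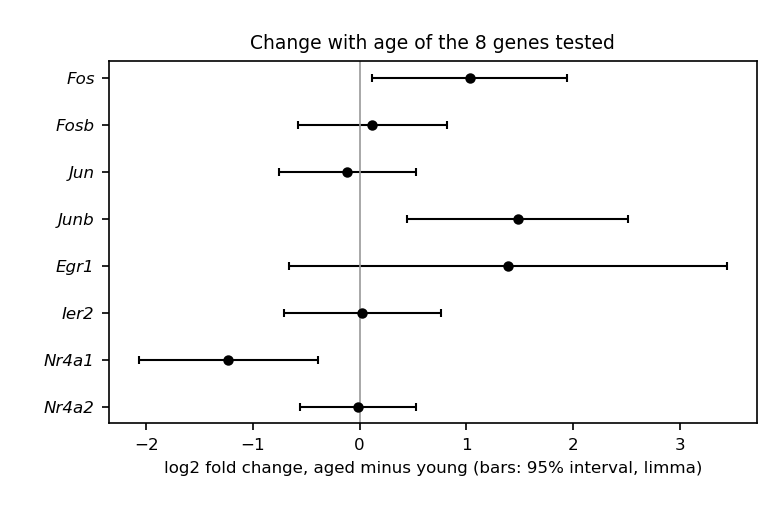
Difference in log2 signal, aged minus young, of the 8 immediate early transcription factors tested, with unadjusted 95% intervals from limma. The intervals of *Fos* (0.11 to 1.95) and *Junb* (0.45 to 2.52) lie above 0, that of *Nr4a1* (-2.07 to -0.39) lies below 0, and that of *Egr1* (-0.66 to 3.45) is the widest.

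The 8 genes thus did not share 1 pattern across the mice. Aged mouse 3 had the highest value of the 6 mice for *Fos*, *Fosb*, *Junb* and *Egr1*, 4 of 8 genes (50%), whereas it had the highest value for 16.8% of all genes tested. For *Jun*, *Ier2*, *Nr4a1* and *Nr4a2* it was not the highest. Aged mouse 1 was the highest for 0 of the 8 genes and the lowest for 3, *Fosb*, *Nr4a1* and *Nr4a2*. Counted against the range of the young mice, aged mice 1, 2 and 3 had 1, 4 and 4 genes above it and 3, 1 and 2 genes below it. The median deviation from the young mean was -0.04, 0.24 and 0.29 in aged mice 1 to 3, and -0.07, -0.01 and -0.07 over all genes.

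The same mouse was the highest for some of the related genes, among them *Atf3*, *Nab2* and *Myc*, but over all 102 related genes tested it was the highest for 20 (19.6%). *Sik1*, described below, was level across the aged mice instead, and *Ccn2* had its lowest value in aged mouse 3.

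**Figure D3:**
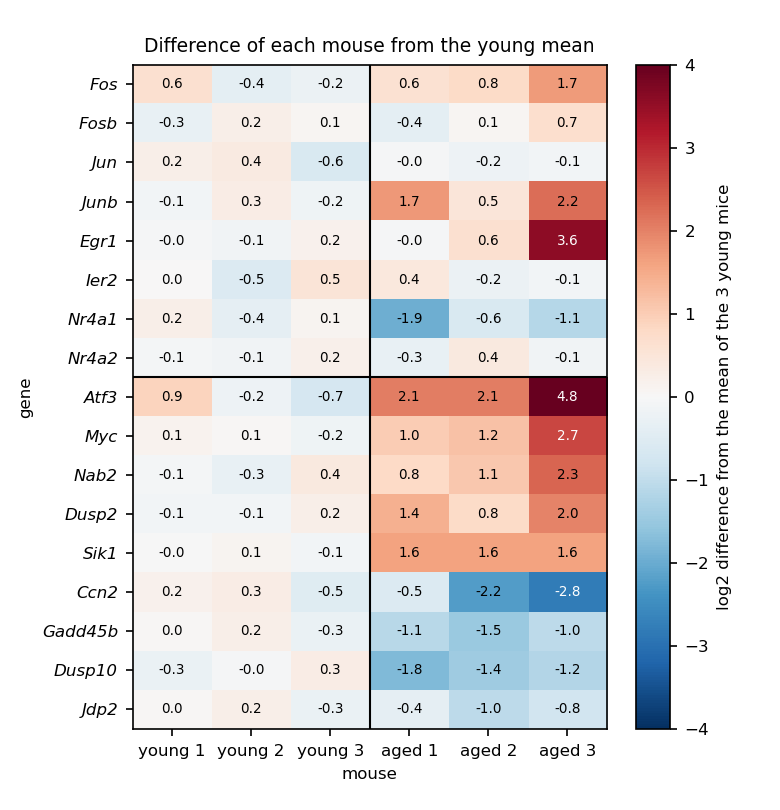
Log2 difference of each mouse (columns) from the mean of the 3 young mice for the 8 immediate early transcription factors tested (above the line) and 9 related genes (below it). All 9 were picked from the named genes whose groups did not overlap, so they do not represent the 102 related genes tested. Red is higher and blue lower, with the value written in each cell; *Egr1* at 3.6 and *Atf3* at 4.8 in aged mouse 3 are the largest.

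Leaving out 1 mouse at a time kept the direction of *Junb* (1.11 to 1.98), *Nr4a1* (-1.54 to -0.87), *Fos* (0.69 to 1.35) and *Egr1* (0.30 to 2.11). Other than for *Egr1* without aged mouse 3 or without aged mouse 1 (2.11), these values stayed within 1.5 times those of all 6 mice. None of the 4 genes passed the threshold in any of these fits.

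**Figure D4:**
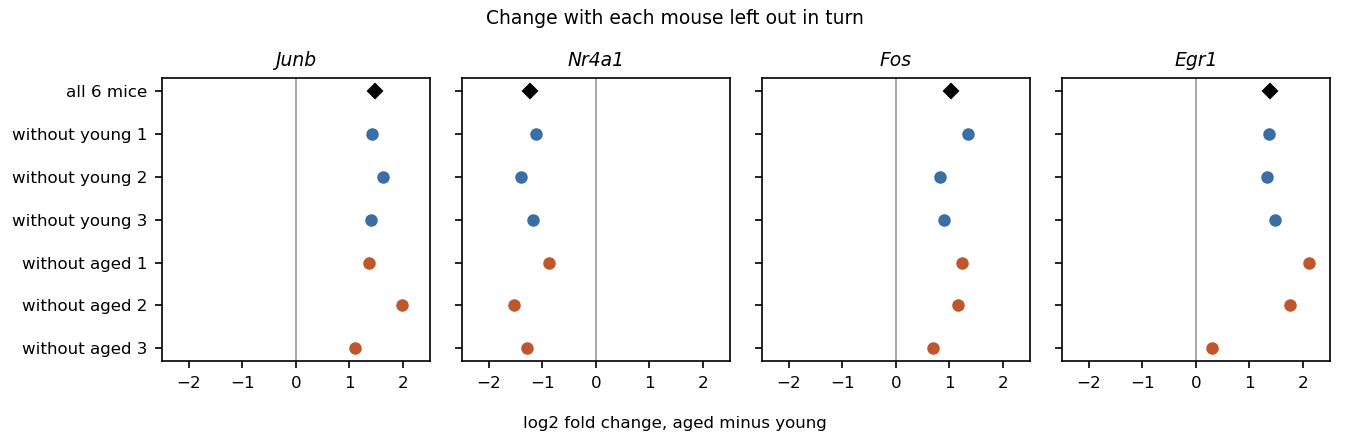
Log2 fold change, aged minus young, of *Junb*, *Nr4a1*, *Fos* and *Egr1* with all 6 mice (diamond) and with 1 young (blue) or aged (red) mouse left out (circles). The value of *Egr1* falls from 1.39 to 0.30 without aged mouse 3.

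The arrays sat on 1 slide. The 3 young mice and aged mouse 1 were in row 1 and aged mice 2 and 3 in row 2, so row and age were partly confounded. With row as a block, which leaves aged mouse 1 against the young mice, the differences were 1.74 for *Junb*, -1.94 for *Nr4a1*, 0.62 for *Fos* and -0.05 for *Egr1*, with limma adjusted p of 0.128 to 0.990. Row 2 held no young mouse and gives no value of its own. Across the arrays the 75th percentile signal was 209 to 310, 48.7% to 53.8% of probes were well above background, and no probe was saturated.

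The signaling kinases upstream of these genes (25 of the ERK, JNK and p38 cascades and their effectors, all tested) had no member past the threshold. Of them 18 had a lower mean in aged mice and 7 a higher one, with a median difference of -0.24, where 11882 of all 20900 genes had a lower mean. At an unadjusted limma p under 0.05, 4 were lower and 0 higher (8.36% and 6.07% of all genes). *Map2k2*, a kinase that activates ERK, differed by -0.48 (SE 0.18, limma adjusted p = 0.301) and *Map2k5*, which activates ERK5, by -0.42 (SE 0.17, limma adjusted p = 0.332), or by -0.26 as the mean of its probes. *Braf*, which acts above MEK, differed by -0.24 (limma adjusted p = 0.513), by -0.39 under median scaling, by -0.14 as the mean of its probes and by -0.061 with slide row as a block.

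The factors that switch immediate early genes on (SRF, its partners, CREB and their coactivators) were 14 genes, all tested, with a median difference of -0.04 and none past the threshold. *Creb1*, which encodes the factor that binds the cAMP response element, had log2 signals of -1.59, -1.66 and -1.73 in young mice and -2.90, -2.04 and -2.01 in aged mice, and differed by -0.66 (SE 0.27, limma adjusted p = 0.333). *Crebbp*, a coactivator that binds CREB, differed by -0.39 (limma adjusted p = 0.377) and *Crtc2*, another, by -0.29 (limma adjusted p = 0.483). These 3 were named because their groups did not overlap. On the list, 0 of 14 genes had every aged mouse above and 3 every aged mouse below the young mice (7.92% and 13.9% of all genes). With slide row as a block *Creb1* was -1.24 and *Crtc2* -0.19, *Creb1* was -0.36 without aged mouse 1, and *Crtc2* was -0.18 without aged mouse 3 and -0.44 under median scaling. *Crem*, singled out after its values were seen because some of its transcripts encode an inducible repressor of this element, was 0.91, 0.59 and 0.81 in young mice and 0.82, 2.11 and 2.88 in aged mice (difference 1.17, SE 0.49, limma adjusted p = 0.344).

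Among the feedback inhibitors, which are induced by the same signals and damp them, 19 of 22 were tested and *Sik1* passed the threshold. *Sik1* encodes a kinase, induced by cAMP and by contraction, that holds CREB coactivators in the cytoplasm. Its log2 signal was -0.25, -0.13 and -0.34 in young mice and 1.37, 1.37 and 1.36 in aged mice. The 3 aged mice were almost level, and all were far above the young mice. *Sik1* rose by 1.60 (SE 0.15, limma adjusted p = 0.0214), which was the only change past the threshold among the 102 related genes tested in this fit. Of the related genes named here, *Dusp10* and *Ccn2*, described below, each passed it in 1 alternative. Its direction held in all 17 alternatives to this fit, but its call was lost in 9 of them, with an adjusted p of 0.0101 to 0.111.

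The list as a whole had 10 higher and 9 lower means and a median difference of 0.12. The DUSP family comprises phosphatases that remove the activating phosphates from ERK, JNK and p38, and none of those tested passed the threshold. *Dusp2* was 1.20, 1.21 and 1.57 in young mice and 2.76, 2.08 and 3.32 in aged mice (difference 1.39, SE 0.32, limma adjusted p = 0.156). *Dusp10* was 0.97, 1.21 and 1.56 in young mice and -0.52, -0.16 and 0.07 in aged mice (difference -1.45, SE 0.23, limma adjusted p = 0.0835). Both were named because their groups did not overlap, which held for 4 genes of the list with the aged mice above and for 4 with the aged mice below (7.92% and 13.9% of all genes). *Dusp10* passed the threshold under normexp background correction (limma adjusted p = 0.0308).

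Of 31 other immediate early genes, 28 were tested and none passed the threshold. Their median difference was -0.17, and at an unadjusted limma p under 0.05 there were 2 higher and 7 lower genes (6.07% and 8.36% of all genes). *Myc*, which encodes a growth factor-induced transcription factor, was -1.05, -1.12 and -1.36 in young mice and -0.16, -0.01 and 1.5 in aged mice (difference 1.62, SE 0.43, limma adjusted p = 0.196). *Ccn2*, which encodes connective tissue growth factor, was 4.21, 4.33 and 3.56 in young mice and 3.49, 1.80 and 1.25 in aged mice (difference -1.86, SE 0.56, limma adjusted p = 0.233). *Gadd45b*, which encodes a stress protein that acts on the p38 and JNK cascades, was 3.65, 3.85 and 3.34 in young mice and 2.5, 2.14 and 2.58 in aged mice (difference -1.21, SE 0.21, limma adjusted p = 0.0984). These 3 were named because their groups did not overlap, as they did not, with the aged mice above, in 1 of the 28 and, with the aged mice below, in 7 (7.92% and 13.9% of all genes). With slide row as a block *Ccn2* was -0.55 and *Myc* 1.02. Without aged mouse 1, *Ccn2* was -2.51 and passed the threshold (limma adjusted p = 0.0342). *Klf2* and *Klf4*, singled out after their values were seen as flow-responsive factors of endothelium, differed by -0.91 and -0.88 (limma adjusted p = 0.240 and 0.259).

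Immediate early genes are also expressed by blood and stromal cells of the muscle, and some markers of those cells differed with age. Of 9 neutrophil markers 5 were tested, and *S100a8* (4.8, limma adjusted p = 0.006) and *S100a9* (4.70), well above background on all 6 arrays, passed the threshold. Only 3 arrays detected *Retnlg*, and only 3 detected *Fpr1*, so no median is given for the list. *Cxcr2*, *Ltf*, *Mmp8* and *Ngp* were too dim to be tested. The summed signal of the 5 markers, in multiples of the 75th percentile, was 156 to 161 in young and 169 to 198 in aged mice. Sums weight probes by their brightness, and nearly all of this one came from the probe listed for *Csf3r*, which was far brighter than the rest and differed by 0.05; whether it reads *Csf3r* was not settled. Across aged mice 1 to 3, *S100a8* was 2.26, 1.60 and 1.62, and *Fpr1* was -2.83, -3.04 and -2.42.

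Macrophage markers (8 of 9 tested, summed signal 38.4 to 45.7 in young and 41.4 to 43.3 in aged mice) had none past the threshold. *Cd163* was too dim to be tested, and *Fcgr1* was well above background on only 3 arrays, so no median is given for this list either. Of the 8 macrophage markers tested, 6 had a higher mean in aged mice and 2 a lower one. Every aged mouse lay above every young mouse for 4, *Fcgr1* among them, and below for 0 (7.92% and 13.9% of all genes). *Cd68* differed by 1.08 (limma adjusted p = 0.175). *Itgam* and *Csf1r*, the brightest probes in the sum, differed by -0.26 and -0.05. Fibroblast markers (9 of 9 tested, median -0.72, summed signal 475 to 530 in young and 245 to 375 in aged mice) and endothelial markers (9 of 9, median -0.31, 40.7 to 47.1 and 28 to 40.4) also had none past the threshold. Schwann cell markers (8 of 8, median -0.83, 24.6 to 44.5 and 24.6 to 41.6) had *Prx* past it, with a lower mean in aged mice. Erythrocyte markers (6 of 7, median -1.14, 592 to 830 and 264 to 421), smooth muscle and pericyte markers (8 of 8, median -0.33), adipocyte markers (6 of 7, median -0.23) and satellite cell markers (6 of 7, median 0.04) had none past the threshold. The part of these cells in the values of the immediate early genes was not tested.

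The 5 genes whose profile over the 6 mice was closest to the mean profile of the 8 genes, among 12676 candidates, were *Gar1*, *Hacd3*, *Zfand2a*, *Sc5d* and *Sema4b*, with a root mean square difference of 0.06 to 0.08 on the log2 scale after centering. The mean profile was -0.09, -0.26 and -0.16 in young mice and -0.16, -0.0017 and 0.67 in aged mice, so that it mainly set aged mouse 3 apart. In that mouse 4 of the 8 genes lay above the young mean and 4 below it. The largest deviations were 3.58 for *Egr1*, 2.23 for *Junb* and 1.70 for *Fos*, against -1.13 for *Nr4a1*. The mean profile was thus not that of each of the 8 genes. *Zfand2a*, which encodes a stress-induced zinc finger protein, was 2.87, 2.67 and 2.86 in young mice and 2.68, 3.01 and 3.52 in aged mice. The likeness rests on 6 mice and is a description.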

How the data were processed

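Total RNA from the gastrocnemius of 6 mice was labeled with Cy3 and hybridized to single-color Agilent mouse arrays, 1 per mouse, and each sample was assigned to the young or aged group by its title. The deposited files are Agilent Feature Extraction output, version 11.0.1.1 in the file headers and 9.5 in the submitters' processing notes. Deposited for each spot were linear intensities, namely a processed signal that the authors' software had corrected for background, and the median signals of spot and local background. The files hold 62976 spots per array, and the deposited series matrix held the same processed signal. No scaling between arrays was given in the sources used here.

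Control spots and spots called non-uniform or population outliers were left out, and log2 signals of the spots of a probe were averaged (55681 probes) and set relative to the 75th percentile of the array. A probe was kept if well above background on at least 3 arrays, and a gene was read from its brightest kept, unsaturated probe. Accessions were matched to RefSeq symbols (28325 probes named). The age groups were set against each other in limma 3.58.1 (lmFit, eBayes; R 4.3.3) over 20900 genes with Benjamini-Hochberg adjustment. The script was tested on simulated data.

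The genes and lists were chosen with earlier results of these data known. Named were all 10 genes, and from each related list the genes past the threshold and, of those well above background on all 6 arrays whose groups did not overlap, the 3 with the largest difference. Markers were read as lists. Likeness was ranked by root mean square difference from the mean profile. Alternatives covered background correction (normexp with an offset of 50 on the median signal), normalization (quantile, median, detected probes), the filter on dim probes, the probe rule, a variance trend, the series matrix, slide row, a replicate block and leaving out each mouse. The number of arrays limits the precision.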

Additional observations from a re-analysis of the deposited data

How the results depend on the processing

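None of the 8 immediate early transcription factors passed the limma threshold in any of 17 alternatives, and 3 had an unadjusted p under 0.05 with all mice. With 3 mice per group a difference of this size can miss the threshold in every fit, so that count of 0 says nothing about stability. *Fos*, *Junb* and *Nr4a1* kept their direction in all 17, with differences of 0.62 to 1.35, 0.63 to 1.98 and -1.94 to -0.87 and adjusted p of 0.211 to 0.651, 0.0944 to 0.521 and 0.128 to 0.490. The differences that turned were near 0, except that of *Egr1* (-0.046) with slide row as a block, a fit that leaves aged mouse 1 as the only aged mouse compared. *Fosb* became -0.027 under median scaling and -0.38 with slide row as a block. *Ier2* became -0.0064 under quantile normalization and -0.12 under median scaling, and *Nr4a2* became 0.022 with the percentile over detected probes. Leaving out 1 mouse at a time gave -0.16 to 0.37 for *Fosb*, -0.41 to 0.060 for *Jun*, -0.24 to 0.28 for *Ier2* and -0.22 to 0.13 for *Nr4a2*. Median scaling moved the median difference of all genes from -0.06 to -0.21, and that of the 8 genes to -0.08. The median of the 8 genes was 0.023 to 0.25 with 1 mouse left out, the highest without aged mouse 1. The cause was not tested for any of these.

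The count of all genes past the threshold, 53, was 8 with no filter on dim probes (36710 genes tested), 35 with probes detected on every array (18551 genes tested), and 1 to 199 with 1 mouse left out. Of the 53 calls 41 were higher in aged mice, and the split was 26 of 42 under median scaling, 38 of 60 under normexp, 30 of 42 under quantile normalization, 51 of 63 with the percentile over detected probes, 22 of 41 with slide row as a block and 107 of 199 without aged mouse 1. With the replicate block, which takes the number in the sample titles as a pair, 5 genes passed. No label states that the numbers pair the mice. Deviations of same-numbered mice correlated at -0.06, -0.27 and 0.03 over genes, and those of differently numbered mice at -0.21 to 0.35. With 3 mice per group these values cannot settle whether the mice were paired. None of the 8 genes was called without the block, so it had no call among them to remove, but *Sik1* lost its call (limma adjusted p = 0.104). normexp used the median spot signal. *Egr3* and *Nr4a3*, at background on all arrays, can show no difference at this sensitivity.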
